A study of Mus musculus with 6 samples.

Results

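Levels of the miR-221 and miR-222 strands were compared between mice that lack Cdr1as and their littermates, in mucosa of the small intestine. The members are the 4 mature miRNAs cut from the miR-221 and miR-222 hairpins, mmu-miR-221-3p, mmu-miR-221-5p, mmu-miR-222-3p and mmu-miR-222-5p, taken by name from the deposited table of 1831 mature miRNAs. All 4 were listed in that table, and each was measured by 5 probes. Cdr1as is a circular RNA of the X chromosome with many binding sites for miR-7, and the comparison addressed whether loss of the circle alters miRNA levels in the mucosa. Total RNA of 6 mice was labelled with Cy3 and hybridised to 1-colour small RNA arrays, 1 array per mouse, with 3 wild-type littermates and 3 Cdr1as-/- mice. In the Cdr1as-/- mice the Cdr1as locus had been removed from the genome in the embryo by CRISPR/Cas9 on a C57BL/6J background, so that the deletion was not limited to the epithelium. According to the study's methods, food but not water was withheld from the animals before experiments. The labels gave the genotypes as wildtype and cdr1as knockout and the tissue as small intestine, and gave neither age nor sex.

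miR-221 and miR-222 are neighbours on the X chromosome and are cut from a single primary transcript. The arms of each hairpin are separated by the enzyme Dicer, and the arm kept by an Argonaute protein guides it to messenger RNAs that pair with the seed of the miRNA. For both hairpins the 3p arm is the strand usually described as the guide. The 3p strands are known for repressing Cdkn1b (p27) and Cdkn1c (p57), inhibitors of cell cycle entry, and Kit, the receptor for stem cell factor. They are studied in dividing cells, in endothelium and in vascular smooth muscle, and in the gut mucosa the crypts hold the dividing epithelium.

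The mature sequences are printed because they show which strands share a seed and which do not. Capitals mark the seed, bases 2 to 8 counted from the 5′ end. The sequences were those of the deposited table, and the 3 that could be matched to a RefSeq mature sequence were identical to it. miR-222-5p was not matched.
mmu-miR-221-3p: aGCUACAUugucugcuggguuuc
mmu-miR-222-3p: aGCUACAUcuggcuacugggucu
mmu-miR-221-5p: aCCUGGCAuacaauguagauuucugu
mmu-miR-222-5p: cUCAGUAGccaguguagaucc
The 3p strands shared their first 8 bases and therefore the seed GCUACAU, and 11 of their 23 positions were identical. The 5p strands had different seeds and matched at 2 of 21 positions. None of the other miRNAs of the table had the seed of any of the 4 strands. In RefSeq (GRCm38.p6) both hairpins lie on the minus strand of the X chromosome, Mir222 at chrX:19146893-19146971 and Mir221 at chrX:19146294-19146388, with 504 bases between them. miR-222-3p was placed at chrX:19146901-19146923, miR-221-3p at chrX:19146307-19146329 and miR-221-5p at chrX:19146344-19146369. No other RefSeq gene of the table overlapped either hairpin.

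The array of littermate 3 stood apart from the other 5, and each result below is given with and without it. Its median unscaled signal over the miRNA probes was 236, against 8.75 to 29.2 on the other arrays, and its miRNA levels correlated with those of littermates 1 and 2 at a Spearman's rho of 0.706 and 0.714 across miRNAs. Cdr1as-/- mouse 1 lay nearest to it, at 0.914. Of the miRNA probes, 41.5% (Cdr1as-/- mouse 2) to 100.0% (littermate 3) were well above background. The array headers placed the 3 littermates and Cdr1as-/- mouse 1 on the first slide and Cdr1as-/- mice 2 and 3 on the second, and the array of littermate 1 had a scan time of its own. All 9 miRNAs listed for intestinal epithelium, miR-194-5p and miR-215-5p among them, were well above background on the 6 arrays. So were 1026 of all 1831 miRNAs, and detection alone therefore does not mark the tissue. miR-194-5p had the highest level of all miRNAs on each array except that of littermate 3.

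The level of miR-221-3p, on the log2 scale of the deposited normalized values, was 6.37 in littermate 1, 6.45 in littermate 2 and 3.77 in littermate 3. Cdr1as-/- mice 1, 2 and 3 read 5.16, 6.14 and 5.55. Littermates 1 and 2 were the highest of the 6 mice and littermate 3 was the lowest, so that the Cdr1as-/- mice lay inside the range of the littermates. miR-222-3p, which carries the same seed, read 6.11, 6.30 and 4.88 in littermates 1 to 3, and the Cdr1as-/- mice read 5.18, 6.13 and 5.28. Littermate 3 was again the lowest, and Cdr1as-/- mouse 2 was level with littermate 1.

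miR-222-5p, the partner strand of miR-222-3p, read 6.45, 6.48 and 3.97 in littermates 1 to 3, and the Cdr1as-/- mice read 4.89, 5.72 and 5.67. Here too littermates 1 and 2 were the highest and nearly equal, and littermate 3 was the lowest. miR-221-5p behaved differently from the other 3 strands in littermate 3. It read 3.34, 3.70 and 3.89 in littermates 1 to 3, against 3.51, 3.29 and 3.31 for the Cdr1as-/- mice, so that littermate 3 was the highest mouse, and the groups overlapped.

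**Figure D1:**
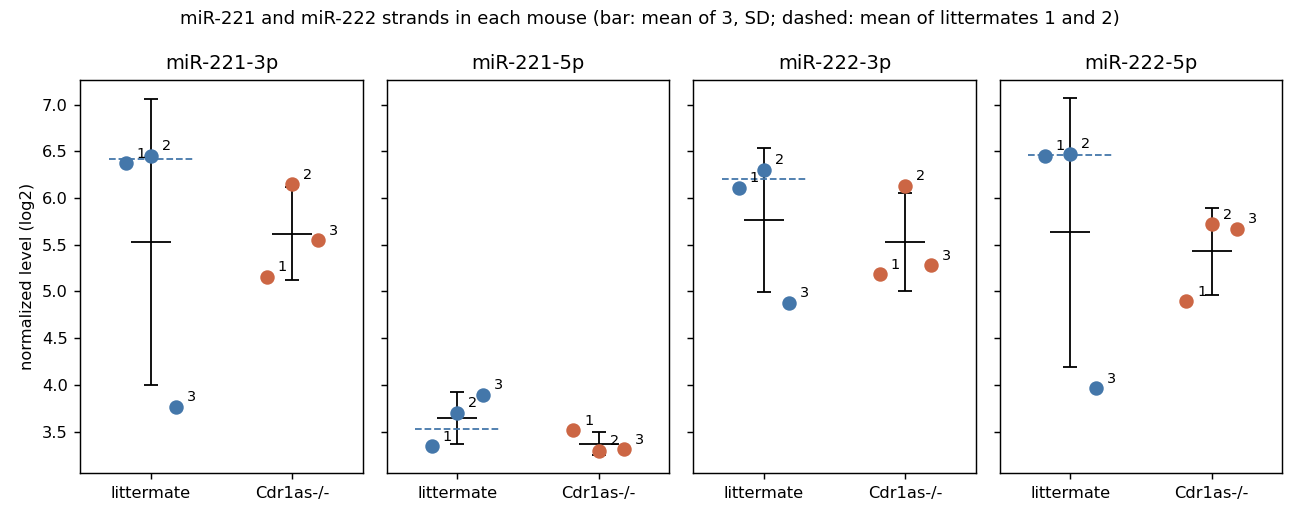
Normalized log2 level of each strand (y axis) in the 3 littermates and the 3 Cdr1as-/- mice (x axis), 1 point per mouse with its replicate number. Bars are the mean of 3 mice with the SD, and the dashed line is the mean of littermates 1 and 2. Littermate 3 is the lowest mouse for miR-221-3p, miR-222-3p and miR-222-5p, at 3.77, 4.88 and 3.97, and the highest for miR-221-5p, at 3.89.

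Over all 6 mice none of the 4 strands passed the test between genotypes. The littermates had a mean miR-221-3p level of 5.53 ± 1.53 (SD, n = 3), against 5.62 ± 0.50 (SD, n = 3) for the Cdr1as-/- mice. The difference, Cdr1as-/- minus littermate, was 0.085 on the log2 scale, with a standard error of 0.77 and a 95% interval from -1.79 to 1.96, so that differences of more than 3-fold in either direction lay inside the interval. For miR-222-3p the means were 5.76 ± 0.77 and 5.53 ± 0.52 (SD, n = 3 each), and the difference was -0.23 with a standard error of 0.48. The spread among the littermates exceeded the difference for both 3p strands.

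For miR-222-5p the littermate mean of 5.63 ± 1.44 stood against a Cdr1as-/- mean of 5.43 ± 0.46 (SD, n = 3 each), a difference of -0.20 with a standard error of 0.73. For miR-221-5p they were 3.65 ± 0.28 and 3.37 ± 0.12 (SD, n = 3 each), a difference of -0.27 with a standard error of 0.24. The adjusted p of each strand was 1.0 (limma over 1831 miRNAs, Benjamini-Hochberg), and the exact two-sided permutation p ranged from 0.2 for miR-221-5p to 1.0, where 0.1 is the smallest that 3 against 3 mice allow. At an adjusted p under 0.05 limma called 0 of the 1831 miRNAs (0.0%), with 6 at an unadjusted p under 0.05. For none of the 4 strands were all Cdr1as-/- mice below all littermates, a pattern that 2.73% of all miRNAs showed. Whether fewer cells of a type or less RNA per cell lay behind a level cannot be told apart in such bulk samples. The p-values measure the spread between mice and between arrays together, since each mouse had its own array.

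Without littermate 3, the 3 brighter strands had lower means in the Cdr1as-/- mice, and no strand passed the adjusted threshold. miR-222-5p had a mean of 6.46 ± 0.02 (SD, n = 2) in littermates 1 and 2, and the Cdr1as-/- mean of 5.43 gave a log2 difference of -1.04 (standard error 0.30). This corresponds to a level 0.487-fold that of the littermates, with a 95% interval from 0.304 to 0.78, and the adjusted p was 0.247 (limma, Benjamini-Hochberg, over all miRNAs). All 3 Cdr1as-/- mice were below both littermates. Among the 1831 miRNAs 2.29% had a lower difference than miR-222-5p.

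miR-221-3p, with a mean of 6.41 ± 0.06 (SD, n = 2) in littermates 1 and 2, differed by -0.80 (standard error 0.31, 0.575-fold, 95% interval 0.354 to 0.936), with an adjusted p of 0.345 by limma. All Cdr1as-/- mice were again below both littermates. For miR-222-3p the littermate mean was 6.21 ± 0.14 (SD, n = 2) and the difference was -0.68 (standard error 0.32, 0.626-fold, 95% interval 0.379 to 1.03), with an adjusted p of 0.388 by limma. Here the groups overlapped, since Cdr1as-/- mouse 2 at 6.13 was above littermate 1 at 6.11. The study itself measured miR-222 in this mucosa by quantitative PCR, without naming the strand, and reported no effect of Cdr1as loss. miR-221-5p differed by -0.15 (standard error 0.24, 0.901-fold, 95% interval 0.616 to 1.32; limma adjusted p 0.725), with overlapping groups.

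These values have to be read against the background of the same 5 arrays. All Cdr1as-/- mice were below both littermates for 2 of the 4 strands and for 19.9% of all miRNAs. An unadjusted limma p under 0.05 with a lower level in Cdr1as-/- mice was found for the same 2 strands, at 0.0302 for miR-221-3p and 0.00718 for miR-222-5p (limma across all miRNAs), and for 10.5% of all miRNAs. limma called 0 of 1831 miRNAs (0.0%) after adjustment, with 242 at an unadjusted p under 0.05. The exact permutation p was 0.2 for miR-221-3p and miR-222-5p, which is the smallest that 3 against 2 mice allow, and 0.4 for the other strands. The median difference over all miRNAs was 0.095 without littermate 3 and -0.07 with it. Relative to that median, the differences without littermate 3 were -0.89 for miR-221-3p, -0.77 for miR-222-3p, -1.13 for miR-222-5p and -0.25 for miR-221-5p.

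The adjusted calls changed when Cdr1as-/- mouse 2 was also left out, and not when another Cdr1as-/- mouse was left out in its place. Without littermate 3 and Cdr1as-/- mouse 2, the Cdr1as-/- mouse with the highest 3p strands, the difference was -1.06 for miR-221-3p, -0.98 for miR-222-3p and -1.18 for miR-222-5p, and the limma adjusted p values were 0.0282, 0.0302 and 0.0302. In that fit, of 2 against 2 mice, 223 of the 1831 miRNAs (12.2%) passed the same threshold. miR-221-5p did not, at -0.11. Leaving out Cdr1as-/- mouse 1 or 3 in place of mouse 2 gave limma adjusted p values from 0.359 to 0.658 for the 3 brighter strands. Leaving out a further littermate instead gave differences of -1.05 to -0.58 for these strands. With littermate 3 left out, the calls of the 3 brighter strands thus turned on whether Cdr1as-/- mouse 2 was included.

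Slide and genotype overlapped only in part, since the second slide held no littermate. On the first slide Cdr1as-/- mouse 1 differed from the mean of littermates 1 and 2 by -1.26 for miR-221-3p, -1.02 for miR-222-3p, -1.57 for miR-222-5p and -0.01 for miR-221-5p. Against all 3 littermates of that slide the same mouse differed by -0.38, -0.58, -0.74 and -0.13, in that order. With the slide as a block and littermate 3 left out, the limma adjusted p was 0.039 for miR-221-3p, 0.0182 for miR-222-5p, 0.115 for miR-222-3p and 0.992 for miR-221-5p, in a fit that called 285 miRNAs (15.6%). That comparison rests on Cdr1as-/- mouse 1 alone. With all 6 arrays and the slide as a block, the adjusted p was 1.0 for each strand. Leaving out littermate 1, whose array had its own scan time, left all 4 adjusted p values above the threshold.

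The deviation of each mouse from littermates 1 and 2 was set beside that of all miRNAs. In Cdr1as-/- mouse 3, miR-221-3p lay at -0.86, miR-222-3p at -0.93 and miR-222-5p at -0.79, where 5.63%, 4.15% and 7.92% of miRNAs lay lower. In Cdr1as-/- mouse 2 the strands separated: miR-222-5p lay at -0.75, with 3.44% of miRNAs lower, whereas miR-221-3p at -0.27 and miR-222-3p at -0.08 lay within the bulk of miRNAs. Cdr1as-/- mouse 1 had the lowest values of the group for all 3 strands, and miRNAs as a whole were also more widely spread on its array, with an SD of the deviations of 0.79 against 0.46 and 0.53 in Cdr1as-/- mice 2 and 3. Littermate 3 had the widest spread, an SD of 1.71, and its deviations were -2.65 for miR-221-3p, -1.33 for miR-222-3p and -2.50 for miR-222-5p. miR-221-5p was near the median of all miRNAs in littermate 3, at 0.37 against 0.39.

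**Figure D2:**
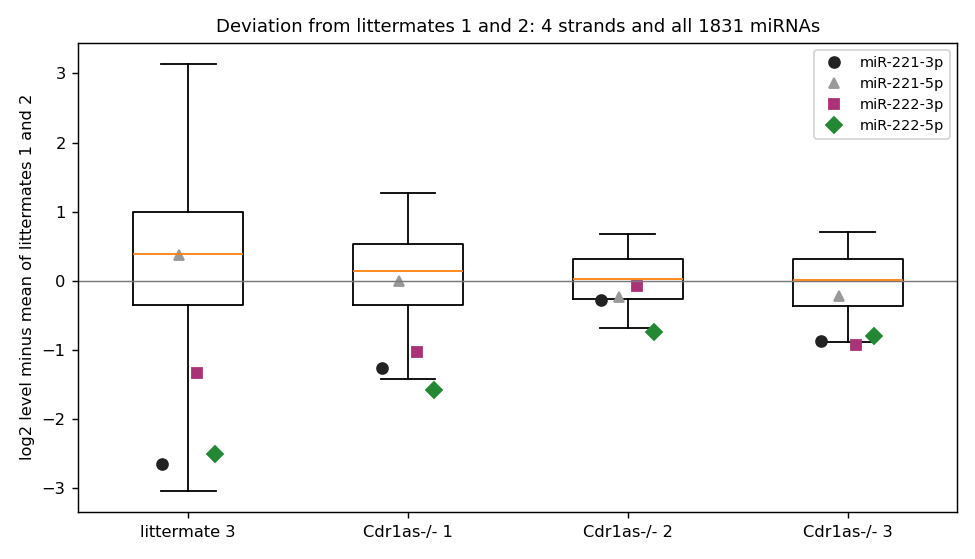
Log2 level minus the mean of littermates 1 and 2 (y axis) for the 4 strands (symbols) in littermate 3 and the 3 Cdr1as-/- mice (x axis). Boxes show the quartiles and median of all 1831 miRNAs and whiskers the 5th and 95th percentiles. miR-222-5p is below the box in all 4 mice, from -0.75 to -2.50, and miR-221-5p is inside it in each.

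The unscaled spot signals were read beside the normalized levels. The 5 probes of miR-221-3p read 12.3 to 83.6 and 12.5 to 102 in littermates 1 and 2 and 97.9 to 194 in littermate 3. On the arrays of Cdr1as-/- mice 1, 2 and 3 they read 21.7 to 141, 15.4 to 100 and 8.48 to 67.1. For miR-222-5p they read 29.3 to 34.0, 34.3 to 42.5 and 135 to 149 in littermates 1 to 3, against 37.6 to 45.8, 24.2 to 39.8 and 24.4 to 29.6 for the Cdr1as-/- mice. Before scaling, littermate 3 thus had the brightest member probes, yet all its miR-221-3p and miR-222-5p probes were below the median miRNA probe of that array (236), whereas on the arrays of littermates 1 and 2 they were above it (8.75 and 11.2). The part of background and labelling in this was not tested.

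miR-222-3p stood higher on that array. Its probes read 247 to 501 in littermate 3, all above the array's median, against 12 to 34.1 and 12.9 to 53.1 in littermates 1 and 2. The probe at 501 was the dimmest of the 5 on every other array. Its normalized value was 5.41 in littermate 3, above the 4.94 and 4.65 of littermates 1 and 2. The normalized values of the other miR-222-3p probes were lower in littermate 3 than in littermates 1 and 2. miR-221-5p was the dim strand. Its probes read 3.87 to 6.52 and 5.61 to 10.2 in littermates 1 and 2, 126 to 140 in littermate 3, and 13.8 to 17.8, 3.77 to 9.61 and 4.90 to 6.43 in the Cdr1as-/- mice. Of its 30 spots 21 were well above background, with 0 of 5 in Cdr1as-/- mouse 2 and 2 of 5 in littermate 1, and 6 of its 30 normalized probe values were the lowest value of their array, so that its level there is a floor. The other strands had 28 (miR-221-3p), 29 (miR-222-3p) and 30 (miR-222-5p) of 30 spots well above background. On the arrays of littermate 3 and Cdr1as-/- mouse 1, 100.0% and 96.8% of all miRNA probes were so called. The spots of those arrays therefore do not set the strands apart.

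**Figure D3:**
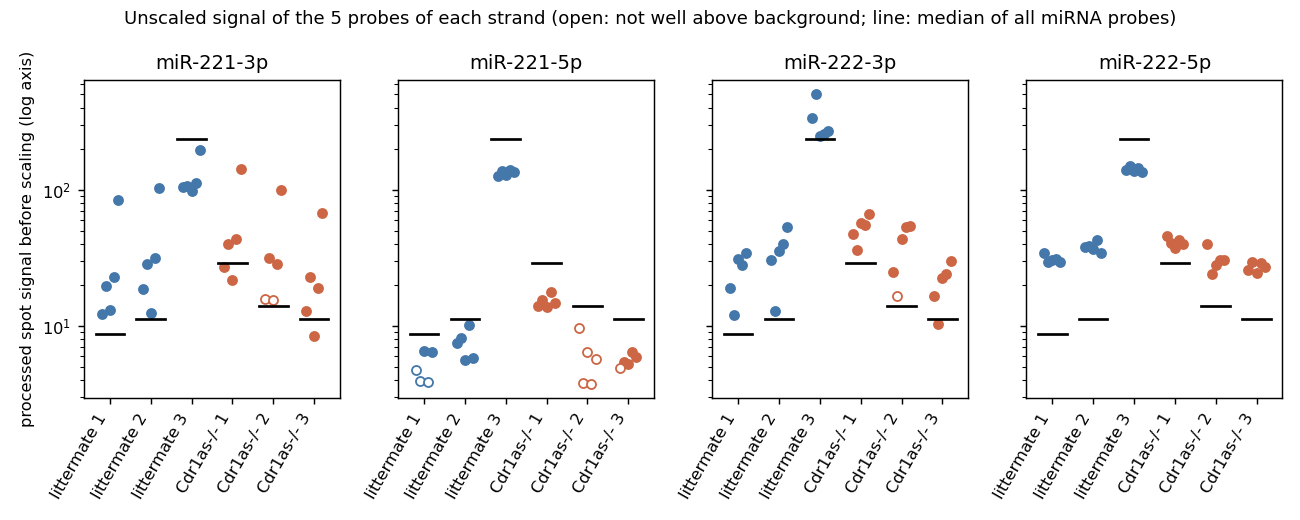
Processed spot signal before scaling (y axis, log) of the 5 probes of each strand on the 6 arrays (x axis). Open points were not well above background, and the black line is the median of all miRNA probes on that array. On the array of littermate 3 the miR-221-3p, miR-221-5p and miR-222-5p probes lie below the line at 236, and on the arrays of littermates 1 and 2 the miR-221-3p, miR-222-3p and miR-222-5p probes lie above it.

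The probes of each brighter strand pointed the same way once littermate 3 was left out. The normalized probe differences were all below 0 for miR-221-3p (-0.95 to -0.48), miR-222-3p (-0.83 to -0.23) and miR-222-5p (-1.13 to -0.92), 5 of 5 probes in each case. For miR-221-5p 4 of 5 were below 0 (-0.19 to 0.10). With all 6 arrays the probes of miR-221-3p split, 3 below 0 and the others above it (-0.19 to 0.27). Probes of a strand read the same RNA and are no replicates of a genotype.

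Since a single transcript gives all 4 strands, the balance between strands was followed mouse by mouse. A balance is the log2 level of a strand minus that of its partner in the same mouse, and because probes differ in brightness only its differences between mice are read. The balance of miR-221, 5p minus 3p, relative to the mean of littermates 1 and 2, was 3.02 in littermate 3 and 1.25, 0.04 and 0.65 in Cdr1as-/- mice 1, 2 and 3. It was thus raised in littermate 3, in Cdr1as-/- mouse 1 and, less, in Cdr1as-/- mouse 3. In Cdr1as-/- mouse 2 it lay within 0.14 of the mean, the distance of littermates 1 and 2 themselves. The 5p strand, near its floor in several mice, varied less between mice than the 3p strand. This balance therefore largely restates the level of miR-221-3p and says little of miR-221-5p.

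The balance of miR-222, 5p minus 3p, was -1.17 in littermate 3 and -0.55, -0.67 and 0.13 in the Cdr1as-/- mice on the same relative scale. The balance of miR-222 therefore moved by less than that of miR-221, and in the opposite direction, in littermate 3 and Cdr1as-/- mouse 1. With miR-221-5p near its floor, this does not show how the arms of the hairpins compare. Cdr1as-/- minus littermate, the balance of miR-221 differed by -0.36 over the 6 mice (exact two-sided permutation p = 0.9) and by 0.65 without littermate 3 (exact p = 0.4). That of miR-222 differed by 0.03 (exact p = 0.9) and -0.36 (exact p = 0.6). None of the strand balances separated the genotypes.

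The hairpins were compared through the same arm of each. The 3p balance, miR-222 minus miR-221, was 0.23, 0.19 and -0.06 in the Cdr1as-/- mice relative to littermates 1 and 2, which themselves lay 0.06 either side of their mean, and 1.32 in littermate 3. In littermate 3 the miR-222-3p term, here and in the miR-222 strand balance, includes the probe whose normalized value was raised there. The 5p balance, miR-222 minus miR-221, was -1.56, -0.52 and -0.58 in the Cdr1as-/- mice and -2.87 in littermate 3, with littermates 1 and 2 at 0.17 either side of their mean. Its miR-221-5p term had 0 of 5 probes well above background in Cdr1as-/- mouse 2 and 2 of 5 in littermate 1, so that the 5p balance largely restates the level of miR-222-5p and says little of miR-221-5p. The genotype difference of the 3p balance was -0.32 with all mice (exact p = 0.8) and 0.12 without littermate 3 (exact p = 0.6). For the 5p balance it was 0.07 (exact p = 1.0) and -0.89 (exact p = 0.2, the smallest that 3 against 2 mice allow), and without littermate 3 all Cdr1as-/- mice were below both littermates.

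**Figure D4:**
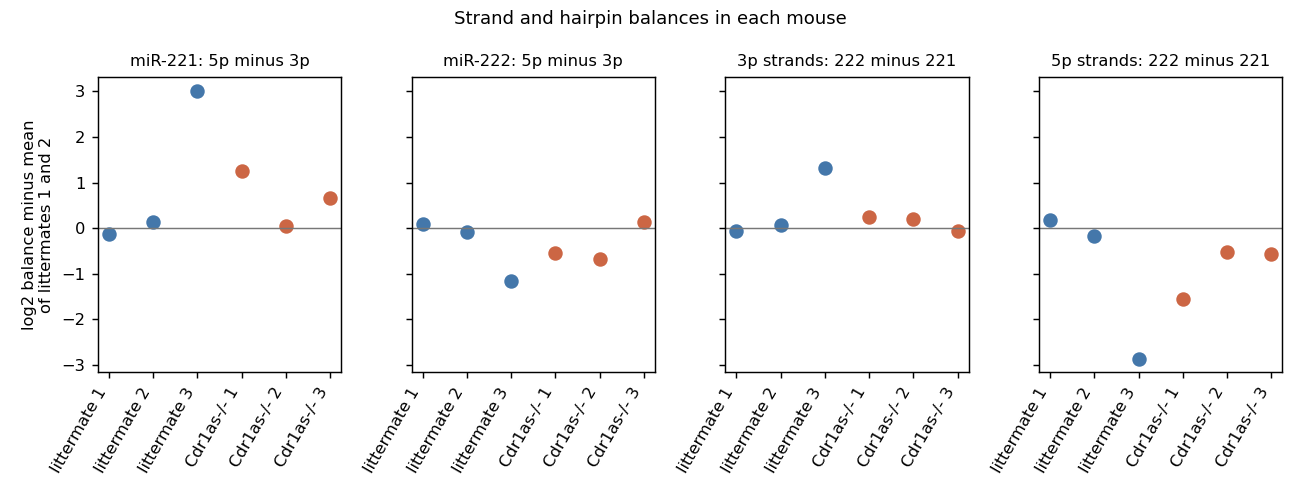
Log2 balance between strands or hairpins minus its mean in littermates 1 and 2 (y axis) in each of the 6 mice (x axis), littermates in blue and Cdr1as-/- mice in orange. Littermate 3 is the farthest from 0 in every panel, at 3.02, -1.17, 1.32 and -2.87, and the 3p balance of the Cdr1as-/- mice stays within -0.06 to 0.23.

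Correlations over the mice describe the same pattern and carry no test, since the points share arrays and scaling. Over the 5 mice without littermate 3, miR-221-3p and miR-222-3p correlated at a Pearson's r of 0.970, a value exceeded by 1.42% of the other miRNAs in their r with miR-222-3p and by 4.7% in their r with miR-221-3p. miR-222-5p correlated at 0.935 with miR-221-3p and at 0.827 with its own partner miR-222-3p. Of the other miRNAs, 8.58% and 16.8% exceeded these values in their r with miR-222-5p. miR-221-5p correlated at 0.141 to 0.207 with the other strands over these 5 mice, and at -0.63 to -0.38 over the 6. Over the 6 mice the 3p strands correlated at 0.916, and miR-221-3p correlated more highly with miR-222-5p, at 0.971. In their r with miR-221-3p, 13.9% and 6.39% of the other miRNAs exceeded these values. In their r with miR-222-3p, 5.9% exceeded 0.916.

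Among miRNAs brighter than the median, the profiles most like miR-221-3p over the 6 mice were those of miR-7a-1-3p (r = 0.9995), from a hairpin of the miR-7 family, and miR-3069-3p (r = 0.999). miR-7a-1-3p read 6.87, 6.97 and 3.52 in littermates 1 to 3, and the Cdr1as-/- mice read 5.22, 6.63 and 5.80. Without littermate 3 the nearest were miR-669c-3p (r = 0.999) and miR-466i-3p (r = 0.999). The nearest to miR-222-5p were miR-181c-3p (r = 0.998 over 6 mice and 0.999 over 5) and miR-5626-5p (r = 0.998 in each).

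For miR-222-3p the nearest profiles were miR-374c-5p (r = 0.981 over 6 mice and 0.999 over 5) and, over the 6, miR-214-3p (r = 0.979). Over the 5 mice the next was miR-16-5p (r = 0.997), a miRNA known for restraining the cell cycle. For miR-221-5p no profile was as close: miR-872-5p reached 0.896 and miR-7094b-2-5p 0.851 over 6 mice, and miR-6946-3p 0.883 and miR-872-5p 0.749 over 5.

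miRNAs that act on the G1 to S step of the cell cycle, where the 3p strands are placed through Cdkn1b and Cdkn1c, were read from fixed lists. Of 10 miRNAs known for promoting that step, among them the miR-17 family and miR-25-3p, 0 passed the adjusted limma threshold in either direction, with or without littermate 3. Their median difference was -0.01 over the 6 mice and -0.47 without littermate 3, where 9 of 10 were below 0. Of 10 known for restraining it, among them the miR-15 and let-7 families and miR-34a-5p, 0 passed as well. Their median difference was 0.67 over the 6 mice and -0.34 without littermate 3, where all 10 were below 0, with miR-34a-5p the lowest at -0.99. Over all miRNAs 786 of 1831 were below 0 without littermate 3, with a median of 0.095, and the median over the 4 strands was -0.74. Of the lists chosen as cell type markers, 6 of 6 immune miRNAs (median -0.32) and 8 of 9 epithelial miRNAs (median -0.16) were also below 0. So were 2 of 2 endothelial (median -0.35), 2 of 3 erythroid (median -0.81) and 2 of 3 neural miRNAs (median -0.35). The smooth muscle and mesenchyme list was split, with 4 of 8 below 0 and a median of 0.06.

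The strands are also made in endothelium and smooth muscle, so markers of other cells were read beside them. The summed level of the endothelial miRNAs miR-126a-3p and miR-126a-5p (log2) was 8.97 and 9.34 in littermates 1 and 2 and 6.70 in littermate 3, against 8.39, 9.47 and 7.68 for the Cdr1as-/- mice. These endothelial miRNAs differed in littermate 3. miR-126a-3p read 8.89, 9.26 and 6.12 in littermates 1 to 3, and miR-126a-5p read 4.75, 4.99 and 5.09. Without littermate 3 their genotype differences were -0.68 and -0.01. Cdr1as-/- mouse 2 was the highest of its group for each of them and for the sum, as it was for both 3p strands. That place was not particular to endothelium. Cdr1as-/- mouse 2 was also highest of its group for the immune list and for the sum of all miRNAs. The latter was 18.82, 18.86 and 18.71 in Cdr1as-/- mice 1, 2 and 3. The 8 miRNAs of smooth muscle and mesenchyme summed to 11.4, 11.4 and 7.92 in littermates 1 to 3, against 12.6, 12.3 and 10.2 for the Cdr1as-/- mice, with Cdr1as-/- mouse 1 the highest. Cdr1as-/- mouse 1 was the highest of its group for miR-143-3p and miR-145a-5p, the brightest of the list in that group. For every other member of the list Cdr1as-/- mouse 2 was the highest of its group. miR-199a-3p, with Cdr1as-/- mouse 2 the highest of its group as for the 3p strands, read 7.58, 7.94 and 4.48 in littermates 1 to 3, against 6.57, 8.14 and 6.20 for the Cdr1as-/- mice. Without littermate 3 the differences were -0.79 for miR-199a-3p, -0.90 for miR-199a-5p and -0.32 for miR-214-3p, and 0.44 and 0.41 for miR-143-3p and miR-145a-5p. The 6 immune miRNAs summed to 12.5, 12.6 and 9.25 in littermates 1 to 3, against 12.1, 12.9 and 12.03 for the Cdr1as-/- mice. The 9 epithelial miRNAs summed to 17.2, 17.2 and 16.0, against 17.05, 17.1 and 17.2. All of these markers were well above background on the 6 arrays, as were 1026 of all 1831 miRNAs, and none passed the adjusted threshold. Their part in the differences of the strands was not tested.

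The direction of the 4 strands was compared across scalings of the scanner output. Without littermate 3, every one of 5 other scalings left each strand below 0, at -0.95 to -0.64 for miR-221-3p, -0.83 to -0.42 for miR-222-3p, -1.01 to -0.48 for miR-222-5p and -0.57 to -0.20 for miR-221-5p, with limma adjusted p values from 0.283 to 0.76. With all 6 arrays miR-221-3p ranged from -0.02 to 0.39 and miR-222-5p from -0.21 to 0.01, so that their signs were not settled. miR-222-3p ranged from -0.36 to -0.08 and miR-221-5p from -0.56 to -0.16.

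**Figure D5:**
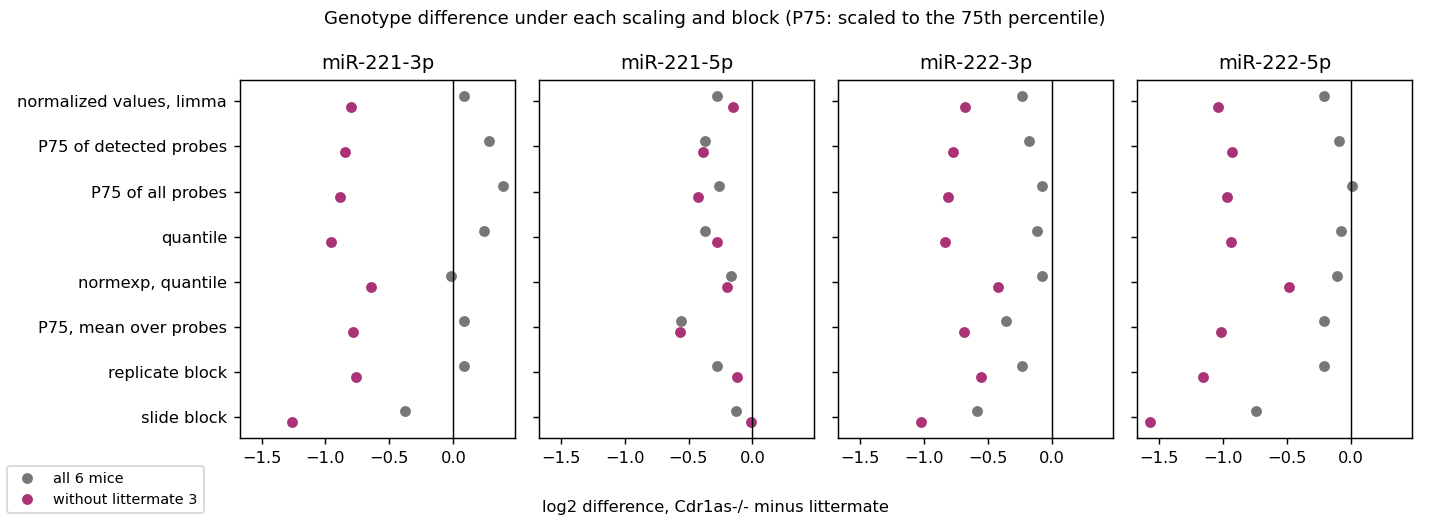
Log2 difference, Cdr1as-/- minus littermate (x axis), of each strand under the normalized values, 5 scalings of the scanner output and the replicate or slide as a block (y axis), for all 6 mice (grey) and without littermate 3 (magenta). Without littermate 3 every point lies below 0, from -1.57 to -0.01, and with all mice miR-221-3p changes sign between -0.38 and 0.39.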

How the data were processed

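Total RNA was labelled with Cy3, hybridised and read with Agilent Feature Extraction 11.0.1.1, per the labels. The deposited per-miRNA values are log2 and already normalized between arrays by the authors; the method is not given in the sources used here. Each was the log2 of the mean unlogged value of its probes, matched within 0.0005 for all 1831 miRNAs. These values were used for every main result. The authors' mean, fold and p columns were not used. The deposited scanner intensity of each spot served for detection calls and for alternatives scaled to the 75th percentile, quantile normalized or normexp corrected (offset 50). Differences were fitted with limma 3.58.1 (R 4.3.3) over all miRNAs, with Benjamini-Hochberg adjustment and a threshold of 0.05, after tests on simulated data. Balances used exact permutation (SciPy 1.17.1). The number of arrays limits the precision. Members, lists and markers were chosen with earlier results of these data known, and fits without littermate 3 under other settings were added after seeing the data. Named miRNAs were the members, seed-sharing miRNAs, the 2 miRNAs brighter than the median that correlated best with each member over 6 and over 5 arrays, and list members that a count needed.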

Additional observations from a re-analysis of the deposited data

How the results depend on the processing

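With all 6 arrays the signs of miR-221-3p and miR-222-5p depended on the processing and the calls did not. The limma adjusted p of each strand stayed at 0.997 or above under every processing. On leaving out a mouse the lowest was 0.247, for miR-222-5p without littermate 3. Under each of these alternatives 0 miRNAs passed. miR-221-3p went from 0.085 to -0.019 with normexp and to -0.38 with the slide as a block, and miR-222-5p from -0.20 to 0.009 with scaling to the 75th percentile of all probes. Leaving out each mouse in turn gave -0.80 to 0.55 for miR-221-3p, -0.42 to -0.15 for miR-221-5p, -0.68 to 0.036 for miR-222-3p and -1.04 to 0.22 for miR-222-5p, and in balances -0.93 to 0.65 (miR-221 strands), -0.36 to 0.27 (miR-222 strands), -0.57 to 0.12 (3p hairpins) and -0.89 to 0.63 (5p hairpins). The miR-222 strand balance was -0.035 with normexp.

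Without littermate 3, the slide block took miR-221-3p to -1.26 and miR-222-5p to -1.57, past the threshold. Leaving out a further mouse gave -1.06 to -0.57 for miR-221-3p, -0.33 to 0.028 for miR-221-5p, -0.98 to -0.50 for miR-222-3p and -1.18 to -0.77 for miR-222-5p. The count of called miRNAs was 0, and became 285 with the slide block, 1 with scaling to all probes, 1 with an intensity trend and 0 to 223 on leaving out a mouse. The methods' t-test gave 21 miRNAs at an unadjusted p under 0.05 with all arrays and 174 without littermate 3, and 0 after Benjamini-Hochberg in each. Scaling to the 75th percentile of detected probes moved the median of all miRNAs to -0.14 and of all probes to -0.18, from 0.095; relative to the median of each scaling, miR-222-5p ranged from -0.99 to -0.50. The cause of these changes was not tested.

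The labels number the mice 1 to 3 in both groups and state no pairing. Same-numbered mice had deviations from their group means correlated at -0.76, 0.56 and -0.22. Littermate 3 weighs heavily on the littermate mean, so these correlations cannot decide whether the numbers pair the mice. The replicate block left the differences over 6 arrays as they were (0.085 for miR-221-3p, -0.20 for miR-222-5p) and gave -0.76 and -1.16 without littermate 3, with no change of call. The dim signal of miR-221-5p limits what its values can show.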

Other observations

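miR-451a, which is made in red cell precursors, read 9.95, 8.03 and 5.40 in littermates 1 to 3, against 7.20, 7.95 and 7.33 for the Cdr1as-/- mice. miR-144-3p, from the same transcript, read 6.25, 4.998 and 3.66, against 4.63, 4.78 and 5.04. miR-486a-5p, the other miRNA of that list, read 3.61, 3.34 and 5.77, against 4.53, 3.84 and 3.78, with littermate 3 the highest, and was not well above background on all 6 arrays. The summed level of the 3 erythroid miRNAs was 10.1, 8.25 and 6.77 in littermates 1 to 3, against 7.61, 8.18 and 7.70 for the Cdr1as-/- mice, and 0 of 3 passed the adjusted limma threshold. Littermate 1 was the highest mouse for miR-451a, for miR-144-3p and for the sum, and for none of the miR-221 and miR-222 strands. Of the neural miRNAs miR-124-3p, miR-9-5p and miR-128-3p, 1 of 3 was well above background on all 6 arrays, and 0 passed.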
